A study of Mus musculus with 14 samples.

Results

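Lin28a, Lin28b, Trim71 and L1td1 encode RNA-binding regulators of pluripotent cells. They were taken as 4 listed gene symbols, and all 4 were found among the 24345 symbols of the RNA-seq tables and the 24394 symbols of the RNA immunoprecipitation (RIP) tables that were used. The study sequenced RNA from mouse embryonic stem cells, which can form all tissues of the embryo, from embryonic fibroblasts, and from stem cells with less or more Dppa5a, a small protein with a KH domain, a fold that binds RNA. Its stated aims were a comparison of splicing among stem cells, fibroblasts and knockdown cells, and a search for RNAs bound by Dppa5a with and without a treatment labelled HU, which the labels do not spell out. Splicing was not analysed here, as values are given per gene.

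There were 7 groups of 2 libraries each. Dppa5a_KD was made from untreated stem cells with a knockdown of Dppa5a, by a method that the labels do not give, and KD_control from wild-type, untreated stem cells. The group mESC was also wild-type and untreated, from a line the labels call home made, as were the stem cells of all other groups. MEF were primary fibroblasts, wild-type and untreated, grown in serum. Stem cells were kept on inactivated fibroblast feeders with leukemia inhibitory factor and passaged on gelatin before harvest. In the 3 RIP groups the stem cells overexpressed 3Flag-Dppa5a. HU_Flag_RIP was precipitated with a Flag antibody after HU, Flag_RIP with the same antibody from untreated cells, and IgG_RIP with control IgG from untreated cells. There was no IgG group after HU, so an effect of HU on the background of the precipitation cannot be told apart from an effect on Flag-bound RNA. Whether the 2 libraries of a group stem from independent cultures is not labelled; the p-values thus cover the spread of these libraries alone, which may be technical.

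LIN28A and LIN28B are paralogs with a cold shock domain and zinc knuckles. Both bind precursors of the let-7 microRNAs and keep them from maturing, LIN28A with the help of enzymes that add uridine tails, and both also bind many messages. TRIM71, the mouse ortholog of worm LIN-41, carries a TRIM motif and an NHL domain that binds RNA hairpins, represses messages such as that of the cell cycle inhibitor Cdkn1a, and is itself a target of let-7. L1TD1 derives from the RNA-binding protein of a LINE-1 retrotransposon, and human L1TD1 associates with LIN28 in pluripotent cells. Mature let-7 rises as stem cells differentiate and in turn represses the Lin28 messages, so LIN28 and let-7 oppose each other.

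The sequence that links these genes is that of let-7, taken here from RefSeq (GRCm38.p6). It is shown because the LIN28 proteins act on its precursor and the let-7 targets below are read by its seed. In the mature strand the seed (bases 2 to 8) is in capitals, and in the hairpin the capitals mark GGAG between the 2 arms, the letters known as the element that the LIN28 zinc knuckles bind. Of 11 mature let-7 family names, 10 shared the seed GAGGUAG, and 9 of 13 hairpins held GGAG between the arms as counted here. The hairpins counted lacked Mirlet7a-2 and held Mir7j and Mir7k, so they differ from the listed let-7 family genes given below. For Mir7j and Mir7k the stretch counted (66 and 68 bases) ran from the mature strand to the end of the hairpin. The Mir7j match is thus not shown to lie between 2 arms.
mmu-let-7g-5p: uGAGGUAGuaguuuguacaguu
Mirlet7g hairpin: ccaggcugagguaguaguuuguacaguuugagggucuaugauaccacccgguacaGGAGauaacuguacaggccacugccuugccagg
The hairpin lies at chr9:106178840-106178927 on the plus strand. Small RNAs were not measured by these libraries. All 12 listed let-7 family genes stood at 0 FPKM in all 8 RNA-seq libraries, and no more than 1 read fell on any of them in any RIP library.

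The promoters of the 4 genes are shown since all 4 were higher in stem cells than in fibroblasts, as described below. Each runs from 250 bases before to 50 bases after an annotated start (RefSeq, GRCm38.p6, the assembly also known as mm10), and all 4 genes were matched. The RefSeq genes Lin28a and Lin28b, on the minus strand, extend farther upstream, to 134019196 and 45486314. Their windows thus describe a start inside the gene. Capitals mark matches, on either strand, to motifs known for factors of stem cells or of promoters in general.
Lin28a, chr4:134018767-134019066, minus strand: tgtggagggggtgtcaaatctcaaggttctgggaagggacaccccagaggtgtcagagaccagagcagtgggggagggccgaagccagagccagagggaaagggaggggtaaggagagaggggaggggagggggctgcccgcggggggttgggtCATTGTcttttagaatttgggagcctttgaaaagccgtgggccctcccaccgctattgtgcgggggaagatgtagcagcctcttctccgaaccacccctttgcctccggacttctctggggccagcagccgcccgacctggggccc
Lin28b, chr10:45470152-45470451, minus strand: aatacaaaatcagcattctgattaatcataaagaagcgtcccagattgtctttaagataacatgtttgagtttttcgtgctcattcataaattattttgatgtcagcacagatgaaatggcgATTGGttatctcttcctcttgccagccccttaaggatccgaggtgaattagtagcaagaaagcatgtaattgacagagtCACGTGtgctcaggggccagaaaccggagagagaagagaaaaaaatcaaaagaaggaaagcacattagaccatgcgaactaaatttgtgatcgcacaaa
Trim71, chr9:114564320-114564619, minus strand: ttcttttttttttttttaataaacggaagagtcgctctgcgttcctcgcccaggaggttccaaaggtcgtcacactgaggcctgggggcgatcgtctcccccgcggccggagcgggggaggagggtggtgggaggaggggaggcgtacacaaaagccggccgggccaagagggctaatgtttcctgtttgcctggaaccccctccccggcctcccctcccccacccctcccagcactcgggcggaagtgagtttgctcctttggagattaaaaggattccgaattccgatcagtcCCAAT
L1td1, chr4:98726504-98726803, plus strand: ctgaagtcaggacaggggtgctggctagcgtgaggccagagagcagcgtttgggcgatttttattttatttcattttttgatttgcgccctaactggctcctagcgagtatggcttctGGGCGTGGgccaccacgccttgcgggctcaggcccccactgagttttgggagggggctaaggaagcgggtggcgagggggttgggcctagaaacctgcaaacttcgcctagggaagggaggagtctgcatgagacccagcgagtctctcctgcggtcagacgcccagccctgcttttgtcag
The Lin28a window held the SOX core CATTGT 96 bases upstream of the start, letters found in 12.6% of all 32851 promoter windows of this length. The Lin28b window held a CCAAT box on the opposite strand 128 bases upstream (37.4% of windows) and the E-box CACGTG 49 bases upstream (7.15%). The Trim71 window held CCAAT only downstream of the start, and the L1td1 window held a match to the KLF motif GGGNGTGG 132 bases upstream (17.6%). None of the 4 windows held the octamer ATGCAAAT (1.74% of windows), the ESRRB half-site AAGGTCA (4.72%) or TATAAA (13.6%). No motif was shared by all 4. These matches are descriptions of letters, not sites shown to be bound. The GC content was 63.3% for Lin28a, 39.0% for Lin28b, 59.3% for Trim71 and 58.7% for L1td1, against a median of 52.7% over all windows.

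The RNA-seq values are FPKM, fragments scaled to transcript length and to sequencing depth, and the depth itself is unknown. The RIP values are read counts, with totals from 3472020 to 13033886 per library, of which 702016 to 1492111 lay outside 4 abundant RNAs (the ribosomal precursor Rn45s, Rmrp, Rpph1 and Lars2). The targeted gene Dppa5a stood at 101 and 358 FPKM in Dppa5a_KD and at 5126 and 5417 FPKM in KD_control, so the knockdown libraries differed in what remained. The listed markers fitted the labels of both cell types. In mESC against MEF 12 of 12 listed stem cell markers were called higher, against 30.6% of all genes. There 17 of 17 listed fibroblast markers were called lower, against 26.1% of all genes. The 2 KD_control libraries were much closer to each other than those of any other RNA-seq group. The authors' confidence bounds overlapped between the 2 libraries for 93.4% of genes in KD_control, against 27.5% to 46.3% in the other RNA-seq groups. The variance between the KD_control libraries was still 2.07 times that of sampling (20.9 to 71.2 times in the others, medians over genes), and they were kept as 2 libraries. With 2 libraries against 2 the smallest two-sided exact permutation p is 0.333, so all calls below come from limma (FPKM) or edgeR (counts), which share the estimate of spread across genes, at a Benjamini-Hochberg adjusted p under 0.05.

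Lin28a lies on chromosome 4 from 134003330 to 134018816 (mm10). It had 61.9 and 49.1 FPKM in Dppa5a_KD, 52.6 and 52.0 FPKM in KD_control, 73.1 and 90.6 FPKM in mESC, and 0 in both MEF libraries. The stem cell libraries thus ran from 49.1 to 90.6 FPKM, highest in mESC, with Dppa5a_KD and KD_control overlapping. Its paralog Lin28b, on chromosome 10 from 45376619 to 45470201, had 3.44 and 2.91 FPKM in Dppa5a_KD, 2.61 and 2.72 FPKM in KD_control, 5.15 and 3.53 FPKM in mESC, and 0.0667 and 0.0519 FPKM in MEF. Per length, Lin28a was therefore the more abundant paralog in each stem cell library, by 18.0 and 16.9 times in Dppa5a_KD, 20.2 and 19.1 times in KD_control, and 14.2 and 25.7 times in mESC. In these bulk libraries, fewer cells that express a gene and less RNA per cell cannot be told apart.

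Trim71, on chromosome 9 from 114511273 to 114564369, had 46.9 and 26.4 FPKM in Dppa5a_KD, 21.8 and 20.7 FPKM in KD_control, 19.8 and 34.8 FPKM in mESC, and 0.365 and 0.246 FPKM in MEF. It had the widest spread of the 4 genes between replicates, with the higher library at 1.78 times the lower in Dppa5a_KD and at 1.76 times in mESC. L1td1, on chromosome 4 from 98726754 to 98738486, had 142 and 114 FPKM in Dppa5a_KD, 26.3 and 25.9 FPKM in KD_control, 234 and 225 FPKM in mESC, and 0 in both MEF libraries. It was the 252nd and 340th most abundant of 24345 genes in mESC and the 520th and 833rd in Dppa5a_KD, but the 3292nd and 3345th in KD_control. The order of the 4 genes per length was L1td1, Lin28a, Trim71, Lin28b in both Dppa5a_KD libraries and both mESC libraries, while in both KD_control libraries Lin28a came first and L1td1 second.

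**Figure D1:**
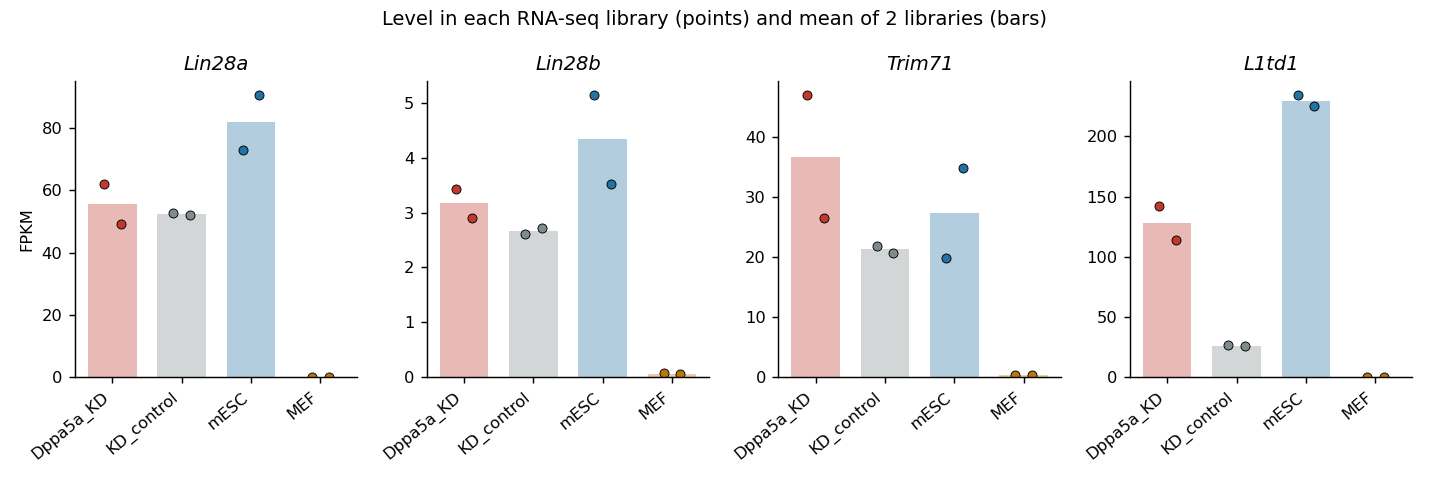
FPKM of Lin28a, Lin28b, Trim71 and L1td1 in the 8 RNA-seq libraries, one panel per gene with its own axis; points are libraries and bars are means of 2 libraries. L1td1 stands at 26.3 and 25.9 FPKM in KD_control, below both other stem cell groups, and all 4 genes are at or near 0 in MEF.

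All 4 genes were higher in mESC than in MEF. Here and for all FPKM values, differences are on the log2(FPKM + 1) scale, which understates the change of low genes. L1td1 differed by 7.85 (SE 0.19, limma adjusted p = 5.2e-05), Lin28a by 6.36 (SE 0.21, adjusted p = 5.9e-05), Trim71 by 4.39 (SE 0.30, adjusted p = 0.00027) and Lin28b by 2.32 (SE 0.21, adjusted p = 0.0006). Among the 12875 genes tested, 30.6% were called higher and 26.1% lower in mESC, so a call alone was common, but in size L1td1 ranked 26th, Lin28a 73rd, Trim71 330th and Lin28b 1560th. Lin28a and L1td1 are listed at 0 in MEF, so their differences depend on the pseudocount of 1 and stand for no fold. The mean of Trim71 was 89.2 times and that of Lin28b 73.2 times as high in mESC as in MEF. KD_control against MEF gave the same 4 calls, with 48.4% of 13365 genes called higher and 32.5% lower. There Lin28a differed by 5.74, L1td1 by 4.76, Trim71 by 4.09 and Lin28b by 1.79 (SE 0.07 to 0.10, limma adjusted p from 7.4e-06 to 3.3e-05). Both comparisons use the same MEF libraries.

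In the knockdown L1td1 rose and the other 3 genes did not pass the test. L1td1 was 2.24 higher in Dppa5a_KD than in KD_control (SE 0.14, 95% interval 1.87 to 2.61, limma adjusted p = 0.006), a ratio of means of 4.90 (128 ± 20.1 FPKM against 26.1 ± 0.253 FPKM, SD, n = 2 each). Only 13.6% of the 12345 genes tested were called higher and 23.8% lower, and L1td1 ranked 45th by size. Trim71 was higher by 0.71, with an interval from -0.02 to 1.43 (SE 0.28, limma adjusted p = 0.11). Lin28b differed by 0.18 (interval -0.12 to 0.49, SE 0.12, limma adjusted p = 0.27) and Lin28a by 0.08 (interval -0.30 to 0.45, SE 0.15, limma adjusted p = 0.71). Both intervals lie below 1 on this log2 scale. With Dppa5a_KD replicate 1 left out, Trim71 passed at 0.30 (limma adjusted p = 0.0035) and Lin28a stood at -0.09. With replicate 2 left out, Trim71 passed at 1.11, Lin28a at 0.24 and Lin28b at 0.28 (limma adjusted p = 6.7e-06, 0.002 and 0.037), where the spread rests on the 2 KD_control libraries, and the genes called numbered 8593 and 9436 against 4618 with all libraries. The median over all genes was -0.11, with 1678 genes called higher and 2940 lower. Under median-ratio scaling these were 2551 and 2123 and the median moved by 0.16. The L1td1 call held in all 12 alternatives run, with differences from 2.08 to 2.42.

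The ratio of L1td1 to Lin28a within a library does not depend on scaling. It was 2.30 and 2.32 in Dppa5a_KD, 0.5003 and 0.4987 in KD_control, and 3.21 and 2.49 in mESC. Dppa5a_KD and KD_control were thus far apart and their replicates close together, while Dppa5a_KD lay just below mESC.

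The 2 wild-type stem cell groups also differed in L1td1. It was 3.09 lower in KD_control than in mESC (SE 0.13, interval -3.45 to -2.73, limma adjusted p = 0.0071), with means of 26.1 ± 0.253 FPKM and 230 ± 6.40 FPKM (SD, n = 2 each), and this call held in all 12 alternatives. Lin28a was 0.63 lower in KD_control (SE 0.17, limma adjusted p = 0.045), a call lost in 4 of 12 alternatives, among them leaving out either KD_control library (-0.64 and -0.62, limma adjusted p = 0.41 and 0.42). Lin28b differed by -0.53 (SE 0.20, limma adjusted p = 0.1) and Trim71 by -0.30 (SE 0.30, limma adjusted p = 0.46), without passing. Lin28b passed without mESC replicate 1 (-0.31) and without replicate 2 (-0.75), and Trim71 passed without replicate 1 (-0.69) but stood at 0.10 without replicate 2. Of 12595 genes tested in this comparison, 26.5% were called higher and 15.0% lower; their median difference was 0.19. The genes called were 3336 higher and 1884 lower, and 2600 and 2439 under median-ratio scaling, which moved the median by -0.21. Dppa5a itself was higher in KD_control than in mESC by 1.68 (SE 0.23, limma adjusted p = 0.012). The Y-linked gene Eif2s3y was listed at 0 in both Dppa5a_KD and both KD_control libraries but at 43.2 and 41.2 FPKM in mESC. The 10 primitive endoderm markers summed to 80.9 and 82.6 FPKM in KD_control and to 143 and 290.0 FPKM in mESC, with 7 of 10 called lower. The 5 neural markers summed to 44.7 and 46.4 FPKM in KD_control and to 79.8 and 79.9 FPKM in mESC, with 3 of 4 tested called lower. The 17 fibroblast markers summed to 38.2 and 39.2 FPKM in KD_control and to 10.2 and 17.8 FPKM in mESC, with 3 of 7 tested called higher. Of 12 stem cell markers 2 were called higher and 1 lower, Zfp42, at 34.3 and 36.6 FPKM in KD_control and 406 and 502 FPKM in mESC (-3.64, SE 0.18, limma adjusted p = 0.0071), a larger difference than that of L1td1. Zfp42 stood at 41.5 and 50.2 FPKM in Dppa5a_KD. Of 7 formative markers tested 2 were called lower and none higher. The part of these differences between the wild-type cultures in the L1td1 level was not tested. Because KD_control is a member of both comparisons, its low L1td1 enters both.

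Some markers of other cell types moved in the knockdown as well. Of all genes tested there, 13.6% were called higher and 23.8% lower. The 17 fibroblast markers summed to 17.6 and 17.7 FPKM in Dppa5a_KD and to 38.2 and 39.2 FPKM in KD_control, with 4 of 6 tested called lower and none higher, and Dcn and Postn stood at 0 in all 4 libraries. The 10 primitive endoderm markers summed to 56.0 and 69.8 FPKM in Dppa5a_KD and to 80.9 and 82.6 FPKM in KD_control; 1 was called higher and 4 lower. The 5 neural markers summed to 58.2 and 64.8 FPKM in Dppa5a_KD and to 44.7 and 46.4 FPKM in KD_control. Of 12 stem cell markers, 1 was called lower (Fbxo15) and none higher, with a median difference of 0.04. The 9 formative markers summed to 56.7 and 63.5 FPKM in Dppa5a_KD and to 60.4 and 61.7 FPKM in KD_control; of 7 tested, Otx2 (-1.15), Sox3 (-0.88) and Lef1 (-0.61) were called lower and Dnmt3b (0.59) higher. The 6 macrophage markers summed to 15.9 and 19.6 FPKM in Dppa5a_KD and to 10.4 and 10.7 FPKM in KD_control. Most of this was Cd68, at 15.0 and 18.4 FPKM in Dppa5a_KD and 9.97 and 9.83 FPKM in KD_control. Each other marker was at most 1.16 FPKM in these libraries. Among them Cd14 was higher in Dppa5a_KD and Ptprc and Csf1r were lower, while Lyz2 and Tyrobp stood at 0 in both Dppa5a_KD libraries. The part of these lists in the L1td1 difference was not tested. L1td1 was listed at 0 in MEF.

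**Figure D2:**
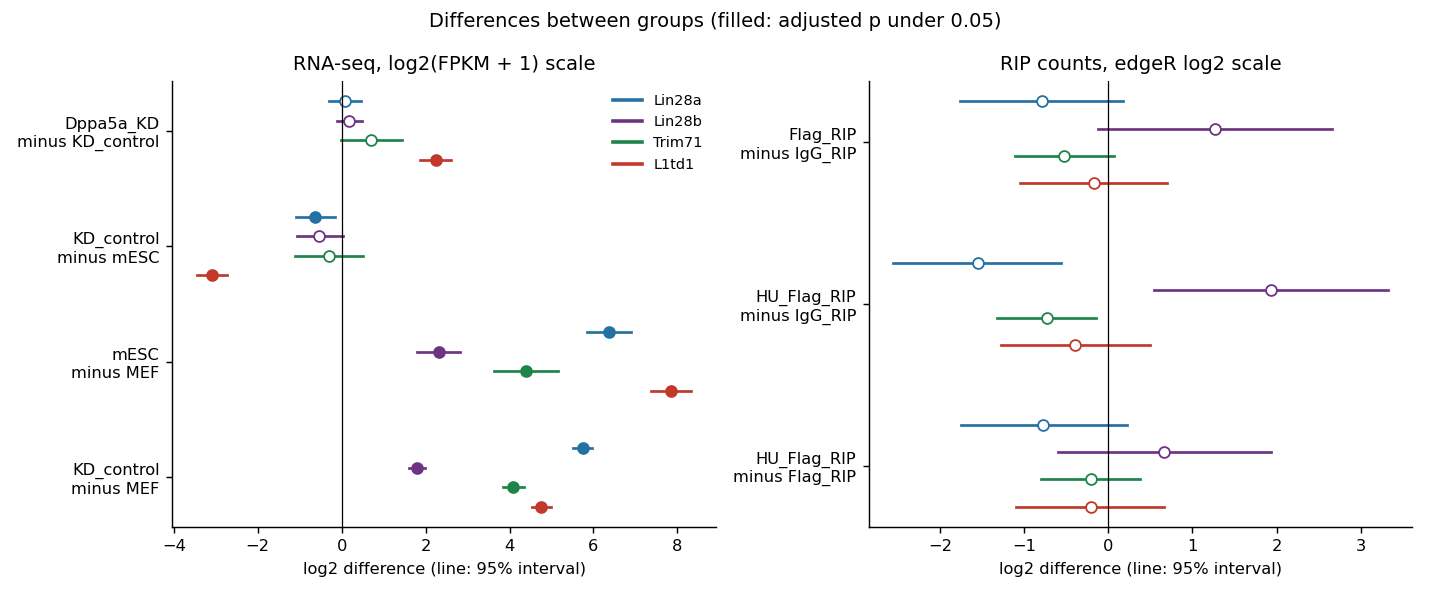
Log2 differences of Lin28a, Lin28b, Trim71 and L1td1 between groups, with 95% intervals; the left panel gives RNA-seq on the log2(FPKM + 1) scale (limma) and the right panel RIP counts (edgeR), and filled points have an adjusted p under 0.05. L1td1 is the only filled point of the knockdown, at 2.24, and no point of the RIP panel is filled.

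The enzymes that make, tail or load let-7 and other microRNAs were next followed, from a list of 20 of which 19 were tested. In the knockdown 5 were called higher and 1 lower, against 13.6% and 23.8% of all genes, with a list median of 0.16. Higher were the pre-microRNA exporter Xpo5 (0.87, SE 0.12, limma adjusted p = 0.01; 59.1 and 49.9 FPKM in Dppa5a_KD, 28.8 and 29.9 FPKM in KD_control), the Dicer partner Tarbp2 (0.63), the nuclear processing enzyme Drosha (0.55) with its partner Dgcr8 (0.53), and the silencing scaffold Tnrc6a (0.48). Dis3l2, the nuclease that degrades uridine-tailed pre-let-7, was lower (-0.44, SE 0.11, limma adjusted p = 0.036). These are small differences: without KD_control replicate 1 none of the 6 calls was kept, and over the left-out libraries 0 to 11 were called higher and 0 to 5 lower. In mESC against MEF 5 were called higher (Drosha, Tarbp2, Ago1, Zcchc11 and Tnrc6c) and 1 lower, against 30.6% and 26.1% of all genes, with 0 to 7 and 0 to 2 when 1 library was left out. The 2 uridine-tailing enzymes moved apart, Zcchc11 (TUT4) at 18.2 and 11.2 FPKM in mESC and 6.91 and 7.86 FPKM in MEF (0.87, SE 0.28, limma adjusted p = 0.042), and Zcchc6 (TUT7) at 6.47 and 5.41 FPKM in mESC and 10.9 and 12.5 FPKM in MEF (-0.87, SE 0.20, limma adjusted p = 0.016). The Zcchc11 call was lost under 8 alternatives, among them other scalings and without either MEF library. In KD_control against mESC 2 were called higher and 4 lower (0 to 6 and 0 to 12 with 1 library left out), against 26.5% and 15.0% of all genes. Dis3l2 (0.86) and Tnrc6b (0.81) were higher and Tnrc6a (-1.20), Ddx5 (-1.03), Dicer1 (-0.90) and Ago1 (-0.85) lower.

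Among messages known as let-7 targets some were called higher and some lower. In the knockdown 32 of 33 were tested, of which 6 were called higher and 2 lower (median 0.17), against 13.6% and 23.8% of all genes. With 1 library left out these counts ran from 4 to 18 higher and from 1 to 7 lower, and under the other alternatives from 3 to 11 and from 1 to 4. The oncogene Myc stood at 20.1 and 23.3 FPKM in Dppa5a_KD and at 2.37 and 2.22 FPKM in KD_control, a difference of 2.78 (SE 0.12, limma adjusted p = 0.006). Myc was lower in KD_control than in mESC, where it had 16.7 and 16.0 FPKM (-2.40, SE 0.14, limma adjusted p = 0.0071). The cell cycle genes E2f2 (1.20) and Ccnd1 (0.84) and the GTPase Hras (0.91) were also higher in the knockdown, while the insulin receptor Insr (-0.91) and the mitotic kinase Aurkb (-0.79) were lower. In mESC against MEF 10 of 33 were called higher and 11 lower (median -0.34), shares near those of all genes (30.6% and 26.1%). Mycn, the Myc relative of stem cells, was higher (4.82), as were Arid3b (3.57), Hic2 (3.08) and Dna2 (2.87), while Thbs1 (-10.09) and Ccnd2 (-5.46) were lower. In KD_control against mESC 6 of 32 were called higher and 8 lower, against 26.5% and 15.0% of all genes, with 2 to 13 higher and 3 to 15 lower when 1 library was left out. The chromatin protein Hmga2 had 1.25 and 1.39 FPKM in KD_control and 15.6 and 10.4 FPKM in mESC (-2.57, SE 0.23, limma adjusted p = 0.0075), and Igf2bp3 (-2.16) and Mycn (-1.16) were lower as well, while Insr (1.92) and Igf1r (0.97) were higher.

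Messages known to be repressed by TRIM71 or its orthologs formed a list of 6, of which 5 were tested in the knockdown. There 1 was called higher and 2 lower (1 to 2 and 1 to 3 with 1 library left out), against 13.6% and 23.8% of all genes. Cdkn1a, an inhibitor of the cell cycle, was lower (-0.68, SE 0.12, limma adjusted p = 0.015). It had 36.8 and 41.9 FPKM in Dppa5a_KD and 61.8 and 65.1 FPKM in KD_control. Rbl2 (-0.77), a relative of the retinoblastoma protein, was also lower, while Egr1 was higher (0.90). In mESC against MEF none of 6 was called higher and 3 were called lower, Egr1 (-4.60), Mbnl1 (-3.82) and Cdkn1a (-1.79). The shares of all genes were 30.6% and 26.1%, and 2 to 5 were called lower with 1 library left out. In KD_control against mESC 1 of 6 was called higher, Cdkn1a (0.92), and 1 lower, Hoxa5 (-1.54), against 26.5% and 15.0% of all genes. Among 7 relatives by domain, which are TRIM-NHL and cold shock proteins, Trim2 was higher (0.47) and Trim3 (-0.62) and Ybx2 (-1.45) lower in the knockdown. Such calls were made for 13.6% and 23.8% of all genes. With 1 library left out, 0 to 4 relatives were called higher and 1 to 3 lower. Ybx2, a cold shock protein of germ cells, had 3.02 and 4.80 FPKM in Dppa5a_KD, 12.1 and 12.4 FPKM in KD_control and 0.291 and 1.97 FPKM in mESC. In mESC against MEF 2 of the 7 were lower, Trim3 (-1.76) and Trim32 (-1.12), and none was higher, against 26.1% and 30.6% of all genes. With 1 library left out, 0 to 2 were called lower and 0 to 1 higher.

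Of 12 other RNA regulators of germ and stem cells tested in the knockdown, 5 were called lower and none higher, against 23.8% and 13.6% of all genes. With 1 library left out, 3 to 7 were called lower and up to 3 higher. Lower were, among others, the splicing factor Esrp1 (-1.33), the piRNA factor Mael (-1.28), Msi1 (-0.92) and the helicase Ddx4 (-0.45), with a list median of -0.22. In mESC against MEF 9 of 12 were called higher and none lower, against 30.6% and 26.1% of all genes (5 to 9 higher with 1 library left out), led by the germ cell regulator Dazl, at 47.4 and 26.0 FPKM in mESC and 0 in both MEF libraries. In KD_control against mESC 4 of 13 were called higher and 2 lower (1 to 8 and 2 to 6 with 1 library left out), against 26.5% and 15.0% of all genes. Dazl (-2.41, SE 0.32, limma adjusted p = 0.011) and Nanos3 (-1.52) were lower, while Esrp1 (1.54), Dnd1 (1.31), Mael (0.92) and Ddx4 (0.65) were higher. The 2 comparisons share the KD_control libraries, so these values are given side by side only.

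**Figure D3:**
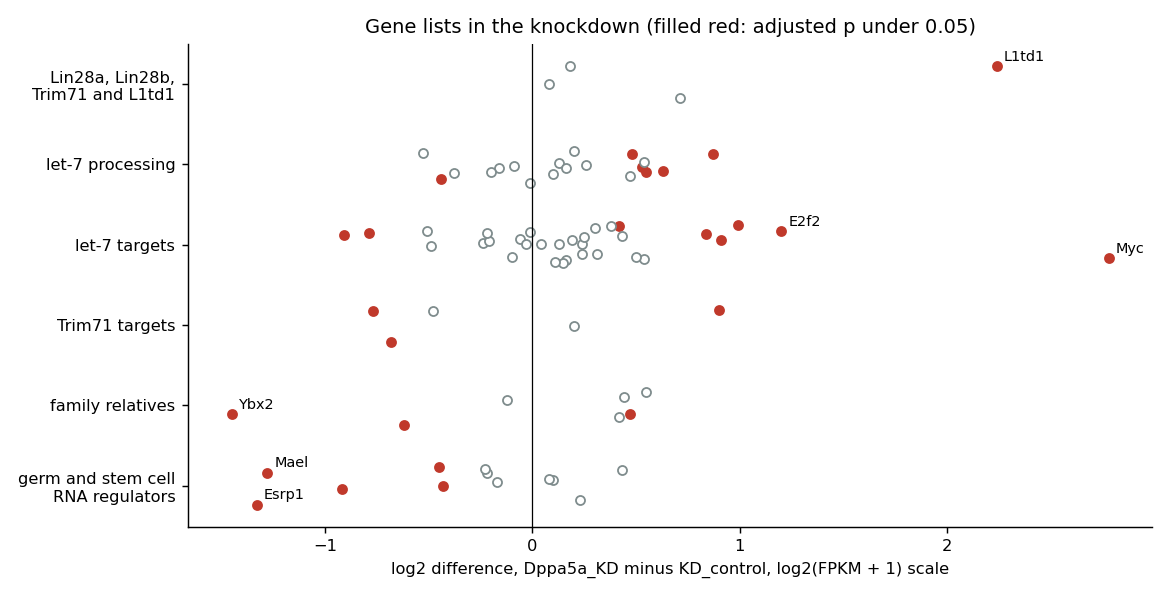
Log2 difference of each tested gene of 5 lists, and of Lin28a, Lin28b, Trim71 and L1td1, in Dppa5a_KD minus KD_control on the log2(FPKM + 1) scale; filled red points have an adjusted p under 0.05, and called genes with a difference of 1 or more are named. Myc at 2.78 and L1td1 at 2.24 are farthest to the right, and Ybx2 at -1.45 is farthest to the left.

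The genes most alike in pattern were those with the smallest root mean square difference of log2(FPKM + 1), centred on each gene, over the 8 RNA-seq libraries, among 12837 genes. For L1td1 they were Tdh (0.40), the threonine dehydrogenase of mouse stem cells, Trh (0.67) and Tcf15 (0.69). Tdh had 98.3 and 122 FPKM in Dppa5a_KD, 21.4 and 22.8 FPKM in KD_control, 106 and 138 FPKM in mESC, and 0 in both MEF libraries. Tcf15 had 147 and 213 FPKM in Dppa5a_KD, 66.5 and 65.3 FPKM in KD_control, and 142 and 197 FPKM in mESC. For Lin28a the nearest were Tuba3a (0.25), the Ras-like gene Eras (0.28) and the zinc finger factor Sall4 (0.29). For Lin28b they were Ddx19b (0.11), Fanci (0.12) and Orc1 (0.12), which stood at 3.39 to 6.79 FPKM in MEF. For Trim71 they were Llgl2 (0.24), Dlgap3 (0.25) and Adap1 (0.28). Among the 4 genes themselves Lin28a and Trim71 were the closest pair (0.77), and Lin28b and L1td1 the farthest apart (2.18). Likeness over 4 groups is a description and says nothing of shared function.

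In the RIP libraries edgeR called none of the 4 messages in any comparison. At an unadjusted p under 0.05 Lin28a, Lin28b and Trim71 passed in HU_Flag_RIP against IgG_RIP, as did 1788 of all 10473 genes tested. DESeq2 also called none of them. For Flag_RIP against IgG_RIP 1.16% of 10473 genes were called higher and 1.16% lower, for HU_Flag_RIP against IgG_RIP 1.44% and 1.42%, and for HU_Flag_RIP against Flag_RIP 0.143% and 0.468%. Trim71 had the most reads of the 4, with 709 and 369 in HU_Flag_RIP, 1004 and 653 in Flag_RIP, and 724 and 670 in IgG_RIP. Lin28a had 67 and 187 reads in HU_Flag_RIP, 182 and 396 in Flag_RIP, and 315 and 313 in IgG_RIP. L1td1 had 105 and 46 reads in HU_Flag_RIP, 148 and 85 in Flag_RIP, and 53 and 104 in IgG_RIP. Lin28b had 34 and 46 reads in HU_Flag_RIP, 32 and 36 in Flag_RIP, and 9 and 8 in IgG_RIP, the last with exact 95% Poisson intervals of 4.12 to 17.1 and 3.45 to 15.8, which cover counting error only. Reads are not per length, so these counts do not order the 4 genes by level.

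As CPM, counts scaled to 1 common library size after TMM normalization, the paralogs ran in opposite directions, short of the threshold. Lin28a had 8.90 and 30.7 CPM in HU_Flag_RIP, 17.7 and 49.5 CPM in Flag_RIP, and 62.7 and 53.0 CPM in IgG_RIP. It differed by -0.79 in Flag_RIP against IgG_RIP (SE 0.46, edgeR adjusted p = 0.45) and by -1.55 in HU_Flag_RIP against IgG_RIP (SE 0.48, edgeR adjusted p = 0.084). In both Flag groups the second library was the higher, by 3.45 times in HU_Flag_RIP and 2.80 times in Flag_RIP, so the size of the difference depends on which library is kept. Against IgG_RIP, Flag_RIP stood at -1.69 without its replicate 2 (edgeR adjusted p = 0.047). HU_Flag_RIP stood at -2.70 without HU_Flag_RIP replicate 2 (edgeR adjusted p = 0.0023) and -0.91 without replicate 1 (adjusted p = 0.36). Over all alternatives of that comparison the adjusted p lay between 0.00061 and 0.40. Lin28b had 4.52 and 7.55 CPM in HU_Flag_RIP, 3.11 and 4.50 CPM in Flag_RIP, and 1.79 and 1.35 CPM in IgG_RIP. It differed by 1.27 in Flag_RIP (SE 0.67, edgeR adjusted p = 0.38) and by 1.93 in HU_Flag_RIP (SE 0.67, edgeR adjusted p = 0.13), both against IgG_RIP.

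The ratio of Lin28a to Lin28b reads within a library is free of scaling. It was 1.97 and 4.07 in HU_Flag_RIP, 5.69 and 11 in Flag_RIP, and 35.0 and 39.1 in IgG_RIP, with no overlap between the 3 groups. The exact 95% intervals of both HU_Flag_RIP libraries (1.29 to 3.07 and 2.93 to 5.74) and both Flag_RIP libraries (3.89 to 8.56 and 7.81 to 15.9) lay below those of both IgG_RIP libraries (18.2 to 77.3 and 19.6 to 91.4). These intervals cover counting error within a library only, and 2 libraries a group allow no smaller exact p than 0.333. The ratio was chosen after the values were seen, and it is 1 of 3 that were computed. The groups overlapped in both others. Lin28a over Trim71 was 0.0945 and 0.507 in HU_Flag_RIP, 0.181 and 0.606 in Flag_RIP, and 0.435 and 0.467 in IgG_RIP. Trim71 over L1td1 was 6.75 and 8.02 in HU_Flag_RIP, 6.78 and 7.68 in Flag_RIP, and 13.7 and 6.44 in IgG_RIP.

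**Figure D4:**
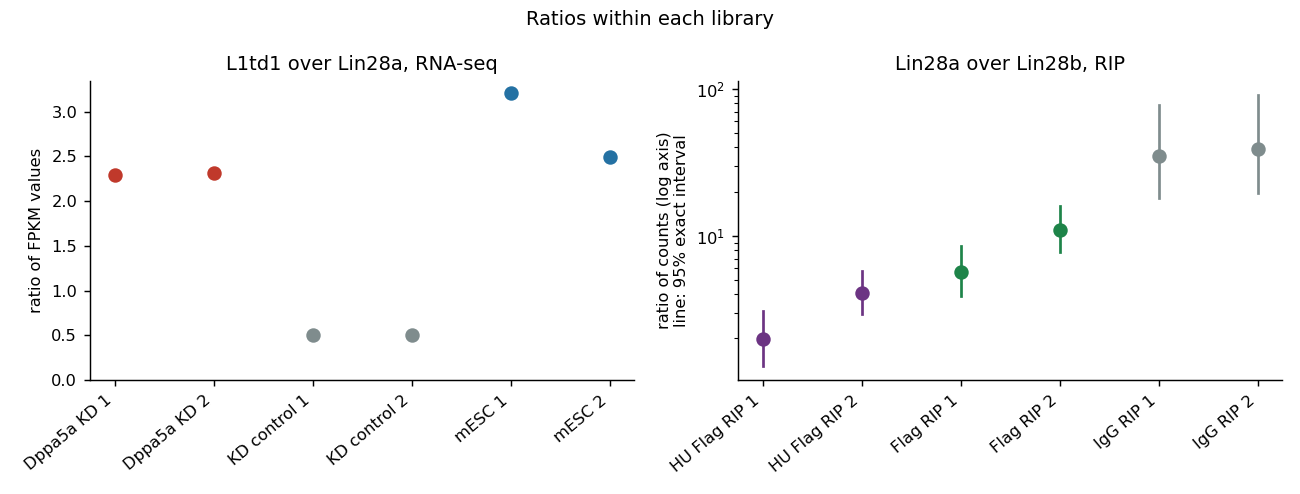
Left, ratio of L1td1 to Lin28a FPKM in each stem cell RNA-seq library; right, ratio of Lin28a to Lin28b read counts in each RIP library on a log axis, with exact 95% intervals that cover counting error. The KD_control libraries lie at 0.5003 and 0.4987 while Dppa5a_KD lies at 2.30 and 2.32, and the RIP ratio is 1.97 and 4.07 in HU_Flag_RIP but 35.0 and 39.1 in IgG_RIP.

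Trim71 had 94.2 and 60.6 CPM in HU_Flag_RIP, 97.6 and 81.6 CPM in Flag_RIP, and 144 and 113 CPM in IgG_RIP. It differed from IgG_RIP by -0.73 in HU_Flag_RIP (SE 0.28, edgeR adjusted p = 0.17) and by -0.52 in Flag_RIP (SE 0.28, edgeR adjusted p = 0.4). L1td1 had 14.0 and 7.55 CPM in HU_Flag_RIP, 14.4 and 10.6 CPM in Flag_RIP, and 10.6 and 17.6 CPM in IgG_RIP, and the 3 groups overlapped. Its differences from IgG_RIP were -0.39 in HU_Flag_RIP and -0.17 in Flag_RIP (SE 0.42 each, edgeR adjusted p = 0.71 and 0.91). HU_Flag_RIP against Flag_RIP gave -0.77 for Lin28a (interval -1.75 to 0.22), 0.66 for Lin28b (-0.60 to 1.93), -0.21 for Trim71 (-0.80 to 0.38) and -0.21 for L1td1 (-1.09 to 0.66), each with an edgeR adjusted p of 1. These intervals are wide enough to hold a doubling for Lin28b and a halving for Lin28a and L1td1. With scaling by library size alone, which moves the median over all genes by -0.92 in HU_Flag_RIP and -0.89 in Flag_RIP against IgG_RIP, Lin28a and Trim71 were called lower in both and L1td1 in HU_Flag_RIP. That scaling called 92 genes higher and 2617 lower in HU_Flag_RIP against 151 and 149 with TMM, and 64 and 2214 in Flag_RIP against 121 and 122.

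**Figure D5:**
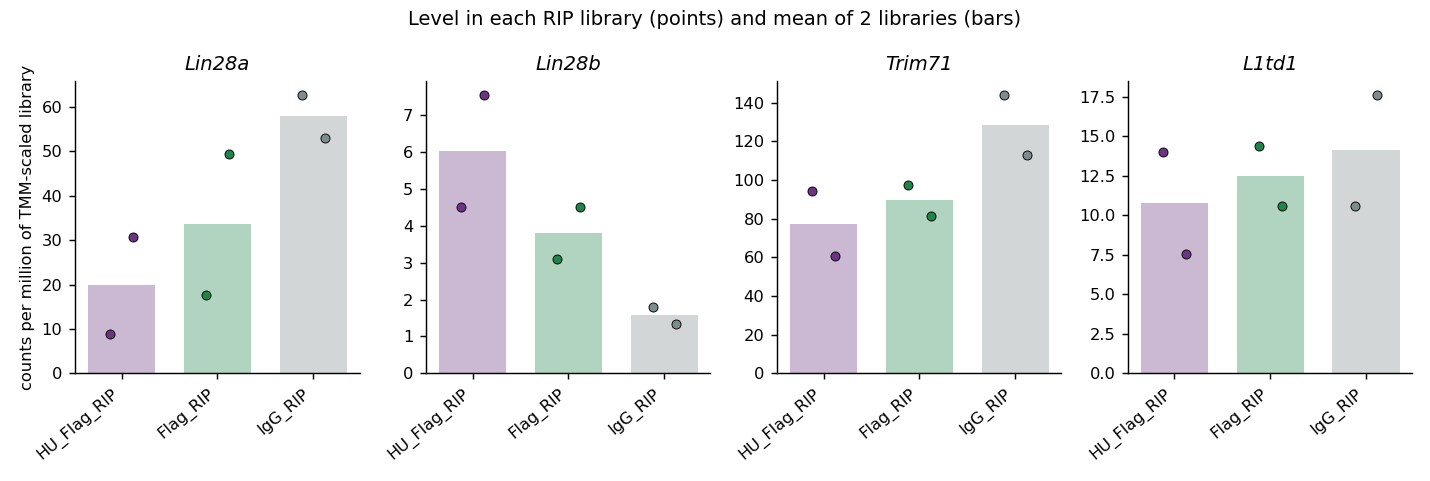
CPM, scaled with TMM, of Lin28a, Lin28b, Trim71 and L1td1 in the 6 RIP libraries, one panel per gene with its own axis; points are libraries and bars are means of 2 libraries. Both IgG_RIP libraries lie above both libraries of each Flag group for Lin28a and Trim71, and below them for Lin28b, while the groups overlap for L1td1.

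Macrophage markers were highest in the IgG_RIP libraries. The 6 macrophage markers summed to 11 and 38.6 CPM in HU_Flag_RIP, 4.67 and 5.50 CPM in Flag_RIP, and 47.4 and 117 CPM in IgG_RIP. Of the 6, Ptprc and Cd14 stood at 0 in both Flag_RIP libraries, and none did so in HU_Flag_RIP or IgG_RIP. The macrophage lysozyme Lyz2 alone had 9.70 and 32.7 CPM in HU_Flag_RIP, 3.31 and 4.12 CPM in Flag_RIP, and 99.2 and 40.1 CPM in IgG_RIP (-4.23 in Flag_RIP against IgG_RIP, SE 0.53, edgeR adjusted p = 0.00014). In the RNA-seq libraries Lyz2 was at most 0.0332 FPKM in mESC, and 28.1 and 32.6 FPKM in MEF. The part of this RNA in the differences from IgG_RIP was not tested. The message of Dppa5a itself was lower than in IgG_RIP by 1.08 in HU_Flag_RIP (log2 difference -1.08, SE 0.24, edgeR adjusted p = 0.017) and did not pass in Flag_RIP (-0.55, SE 0.24, edgeR adjusted p = 0.25).

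In the RIP single genes of the LIN28 and TRIM71 lists were called, as was a small share of all genes. Of all genes tested, 1.16% were called higher and 1.16% lower in Flag_RIP against IgG_RIP. These shares were 1.44% and 1.42% in HU_Flag_RIP against IgG_RIP, and 0.143% and 0.468% in HU_Flag_RIP against Flag_RIP. Ago2, the core of the silencing complex, was the single call among 19 tested processing genes, with 33.2 and 47.5 CPM in HU_Flag_RIP, 41.6 and 44.1 CPM in Flag_RIP, and 113 and 89.4 CPM in IgG_RIP (-1.33 and -1.24, SE 0.29 each, edgeR adjusted p = 0.017 and 0.029). Among 33 let-7 targets 1 was called, Thbs1, lower in Flag_RIP than in IgG_RIP (-2.78), a call lost without Flag_RIP replicate 2 and without IgG_RIP replicate 1. Dazl had 33.9 and 10.0 CPM in HU_Flag_RIP, 22.1 and 6.0 CPM in Flag_RIP, and 0.199 and 2.03 CPM in IgG_RIP, and was called higher in both (4.22 and 3.58, SE 0.77 each, edgeR adjusted p = 0.0043 and 0.016). Esrp1 was lower in Flag_RIP (-4.25, SE 1.02, edgeR adjusted p = 0.031), at 0.389 and 0.125 CPM against 5.38 and 5.42 CPM in IgG_RIP. The TRIM71 target Cdkn1a had 27.2 and 18.6 CPM in HU_Flag_RIP and 1.85 and 7.75 CPM in Flag_RIP (2.28, SE 0.51, edgeR adjusted p = 0.044), and 9.56 and 7.45 CPM in IgG_RIP. The Cdkn1a call was lost in 6 alternatives, among them without Flag_RIP replicate 1 and without HU_Flag_RIP replicate 1. Leaving out either IgG_RIP library ended the Ago2 and Dazl calls in both comparisons, and the Esrp1 call was lost whichever of the 4 Flag_RIP and IgG_RIP libraries was left out (edgeR adjusted p from 0.083 to 0.21).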

How the data were processed

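Gene-level FPKM values with confidence bounds were deposited by the authors for 8 RNA-seq libraries, per the file headers, and gene counts for 6 RIP libraries. Software listed in the submitters' processing notes, with no roles, is HTSeq 0.6.1, Cuffdiff 2.1.1, TopHat2 2.0.8, CASAVA 2.19 and Cufflinks 2.1.1, with the build mm10; strandedness and the handling of reads with several matches are not given in the sources used here. FPKM of symbols with several loci were summed. FPKM were tested with limma 3.58.1 (trend) on log2(FPKM + 1) in the 2 groups compared, keeping a gene if either group's mean reached 1 FPKM. Counts as deposited were tested with edgeR 4.0.16 (quasi-likelihood, TMM, filterByExpr) over all 6 libraries; 27 symbols turned into dates were left out. Calls have a Benjamini-Hochberg adjusted p under 0.05. DESeq2 1.42.0 and other scalings, filters and left-out libraries were alternatives. Members and lists were chosen with earlier results of these data known. Up to 6 called genes with the smallest p were eligible to be named per list and comparison, or up to 2 with none called, and the 3 genes most alike each member; Eif2s3y, Lyz2 and the within-library ratios were chosen after values were seen. One called gene of the germ and stem cell list is not reported here. Simulated data with 200 altered genes were used to test both fits: for Dppa5a_KD against KD_control 53% of 2-fold and 89% of 4-fold changes were recovered, for mESC against MEF 0% and 51%, for KD_control against mESC 0% and 54%, and for HU_Flag_RIP against IgG_RIP 50% of 4-fold changes. False calls made up 3.01% to 7.18% of the simulated calls. In the data these RNA-seq comparisons had 4618 to 7304 calls. The adjusted p depends on how many genes change, so these rates do not tell which RNA-seq changes could be called here. Sequences are from RefSeq (GRCm38.p6).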

Additional observations from a re-analysis of the deposited data

How the results depend on the processing

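In mESC and KD_control against MEF all 4 genes kept their calls in every alternative that tested them. So did L1td1 in the knockdown and in KD_control against mESC. Lin28b lay below the stricter filter of 5 FPKM and was not tested there. Genes called in the knockdown (4618) were 3055 with the 10 most abundant genes left out, 2992 with all 8 libraries in 1 fit, 2916 rescaled to a common sum and 3023 with a stricter filter. In KD_control against mESC Lin28b passed with all 8 libraries (-0.53), and Lin28a did not without a filter (-0.63). With library size alone Flag_RIP against IgG_RIP gave -1.66 for Lin28a, -1.42 for Trim71 and 2278 calls, and HU_Flag_RIP against IgG_RIP gave -2.45, -1.66, -1.33 for L1td1 and 2709 calls. Without a filter calls numbered 433 in Flag_RIP, and 532 in HU_Flag_RIP with Lin28a at -1.57. HU_Flag_RIP against Flag_RIP had 41 calls with only those groups. The causes were not tested.

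With 1 library left out, calls ranged from 2835 to 7056 (mESC against MEF), 2415 to 9436 (knockdown), 1865 to 10895 (KD_control against mESC), 30 to 248 (Flag_RIP against IgG_RIP) and 23 to 252 (HU_Flag_RIP against IgG_RIP). The knockdown gave -0.09 to 0.24 for Lin28a, 0.09 to 0.28 for Lin28b and 0.30 to 1.11 for Trim71. KD_control against mESC gave -0.78 to -0.48 for Lin28a, -0.75 to -0.31 for Lin28b and -0.69 to 0.10 for Trim71. Flag_RIP against IgG_RIP gave -1.69 to -0.22 for Lin28a and -0.47 to 0.25 for L1td1 (0.05 without Flag_RIP replicate 2). HU_Flag_RIP against IgG_RIP gave -2.70 to -0.91 for Lin28a and -0.90 to 0.03 for L1td1. HU_Flag_RIP against Flag_RIP gave -1.91 to 0.13 for Lin28a, -0.58 to 0.07 for Trim71 and -0.74 to 0.15 for L1td1 (0.02 without Flag_RIP replicate 1).

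The labels do not say that replicate numbers pair libraries, and deviations of same-numbered libraries correlated between -0.54 and 0.383, so pairing was not assumed. With a replicate block Trim71 in the knockdown passed at 0.71 (limma adjusted p = 0.0049), Lin28a in KD_control against mESC did not at -0.63, Lin28a in HU_Flag_RIP against IgG_RIP passed at -1.85, and calls against IgG_RIP were 508 in Flag_RIP and 617 in HU_Flag_RIP. A crossed block for mESC against MEF, chosen after seeing the data, gave 8950 calls against 6408 with the block and 7304 without. A group of 2 libraries and an unknown depth of the FPKM limit all values.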
